A study of Mus musculus with 4 samples.

Results

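CTCF occupancy was examined across the telomeric flank of the mouse Hoxd cluster, the chromatin landscape that begins beyond Hoxd1, passes Mtx2 and runs on through a long stretch poor in genes to Hnrnpa3 and Agps. The interval was chr2:74765143-75876748 of mm10, 1112 kb long, and its members were all CTCF peaks that overlapped it by at least 1 base. Peaks of the 4 tissues that shared a base were joined, which gave 70 regions of 121759 in all. The choice used position alone and no measured value. Chromatin immunoprecipitation with a CTCF antibody and sequencing had been done on wild-type embryos of B6CBAF1 background, without any mutant or treatment. Posterior trunk at embryonic day (E) 10 came from about 30 embryos, staged from E9.75 in the protocol, and kept the tailbud, presomitic mesoderm and a few somites, largely free of hindlimb bud. Brain at E12.5 was a pool of 6 telencephalons. Distal and proximal forelimb at E12.5 carry a mark in their titles as re-analysed. With a single library from every tissue, differences between tissues cannot be set against replicate spread. Posterior trunk differs from the other tissues in stage too, and both forelimb parts differ from the others in that mark. Tissue cannot be told apart from these in such comparisons. A peak list holds no expressed markers with which to check a tissue label. The deposited lists give no read totals. Relative depth was read from the lowest local background in each list, and was 2.21 for posterior trunk, 2.02 for brain and 1.08 for proximal forelimb when distal forelimb was set to 1. The trunk list was also the longest, with 106662 peaks against 63873 to 74127.

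CTCF is a zinc-finger protein that binds a long DNA motif and halts the cohesin complex as it extrudes chromatin loops, so that its sites often lie at loop anchors and at borders of topologically associating domains. Hoxd genes stand between a pair of such domains. The centromeric one is known for the enhancers of digits and genitals, and the telomeric one for enhancers that act in the early and proximal limb bud and in parts of the trunk. Mtx2 encodes metaxin 2, a protein of the mitochondrial outer membrane involved in protein import, and Hnrnpa3 encodes an RNA-binding ribonucleoprotein. Neither is a homeobox gene.

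The RefSeq gene table of GRCm38.p6, the assembly of mm10, listed 28 genes that overlap the interval, of which 5 are protein-coding, 17 are long non-coding RNAs and the others pseudogenes. The coding genes were Mtx2, Gm50595, Hnrnpa3, Nfe2l2 and Agps. Gm50595 spans 182 kb of what is called a desert, and no function was attached to it here. RefSeq promoter sequences, of which the 250 bases upstream of the gene start were used, were available for 21 of the 28 genes at 36 starts. The upstream bases of 6 of these starts touched a CTCF region, and 3 of these regions were called in every tissue. Over the genome, 3297 of 32817 promoters touched a region called in every tissue, and the share on any region is not given here. Sequences of 4 starts are shown, the 3 under a region called in every tissue and the one at Hnrnpa3. The first is the whole upstream sequence of the non-coding gene Gm13652 (minus strand, chr2:75137976-75138225), which lies inside a strong region called in every tissue. The second is the part of the promoter listed for Gm50595 (minus strand, chr2:75606039-75606143) under another strong region called in every tissue. The third is the part of the Hnrnpa3 promoter (plus strand, chr2:75659009-75659197) under a weak region called in brain. The last is the part of the Nfe2l2 promoter (minus strand, chr2:75704664-75704713) under a region called in every tissue. All are written from 5′ to 3′ on the strand of the gene, and capitals mark AGGGNGC on either strand.
Gm13652: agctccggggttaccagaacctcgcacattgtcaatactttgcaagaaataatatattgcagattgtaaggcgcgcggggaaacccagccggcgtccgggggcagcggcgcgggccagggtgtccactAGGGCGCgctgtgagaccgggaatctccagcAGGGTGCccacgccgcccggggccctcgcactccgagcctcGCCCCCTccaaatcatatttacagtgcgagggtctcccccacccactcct
Gm50595: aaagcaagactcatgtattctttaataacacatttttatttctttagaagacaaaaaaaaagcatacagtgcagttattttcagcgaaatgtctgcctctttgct
Hnrnpa3: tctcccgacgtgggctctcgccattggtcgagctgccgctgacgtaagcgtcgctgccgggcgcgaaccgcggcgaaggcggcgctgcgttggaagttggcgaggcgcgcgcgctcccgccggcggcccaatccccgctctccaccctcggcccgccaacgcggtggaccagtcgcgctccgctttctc
Nfe2l2: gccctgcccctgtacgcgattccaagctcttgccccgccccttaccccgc

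The upstream bases of Gm13652 held the letters AGGGGGC, a frequent form of the centre of the CTCF motif, once, on the opposite strand, 70, 62, 74 and 60 bases from the summits in posterior trunk, brain, distal forelimb and proximal forelimb. Both AGGGGGC and AGATGGC had been searched on both strands. One or the other was present in 13.6% of 32817 promoters, and in 25.9% of the 3297 whose upstream bases touched a region called in every tissue. The looser letters AGGGNGC, which take in AGGGGGC and were chosen after the sequence of Gm13652 had been seen, occurred 3 times there. The nearest of these matches lay 2, 10, 2 and 12 bases from the same summits. AGGGNGC was found in 21.3% of all promoters and in 40.2% of those on a region called everywhere. The printed stretches of Gm50595, Hnrnpa3 and Nfe2l2 held neither form, which says only that these letters are not in these windows. The same Gm50595 promoter did hold AGGGGGC, at chr2:75606182-75606188, which lies beyond the end of the region at 75606143 and was not printed. The percentages above are of promoters and are not limited to bases under a region.

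Posterior trunk had a peak in 66 of the 70 regions, brain in 36, distal forelimb in 35 and proximal forelimb in 37. These were 94.3%, 51.4%, 50.0% and 52.9%, against 87.5%, 60.5%, 52.8% and 52.0% of all union regions in the same order. Regions called in all 4 tissues numbered 30, or 42.9%, against 42.4% of all union regions of the genome. Regions called in posterior trunk only numbered 25, or 35.7%, against 28.4% genome-wide. Another 11 regions were called in 2 or 3 tissues, against 18.0% of regions genome-wide. Brain alone had 2 regions, against 5.92% of regions genome-wide. Proximal forelimb alone also had 2, against 2.23%, and distal forelimb alone had 0, against 3.11%. The shares of regions called everywhere were thus near the background. Pileups and local backgrounds were then scaled to the same depth, and a common −log10 p of at least 5 was required. Of the 53 regions left, 12 were trunk-only, from 25 of 70, and 24 were called everywhere, from 30 of 70. Genome-wide shares after this scaling are not given here.

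**Figure D1:**
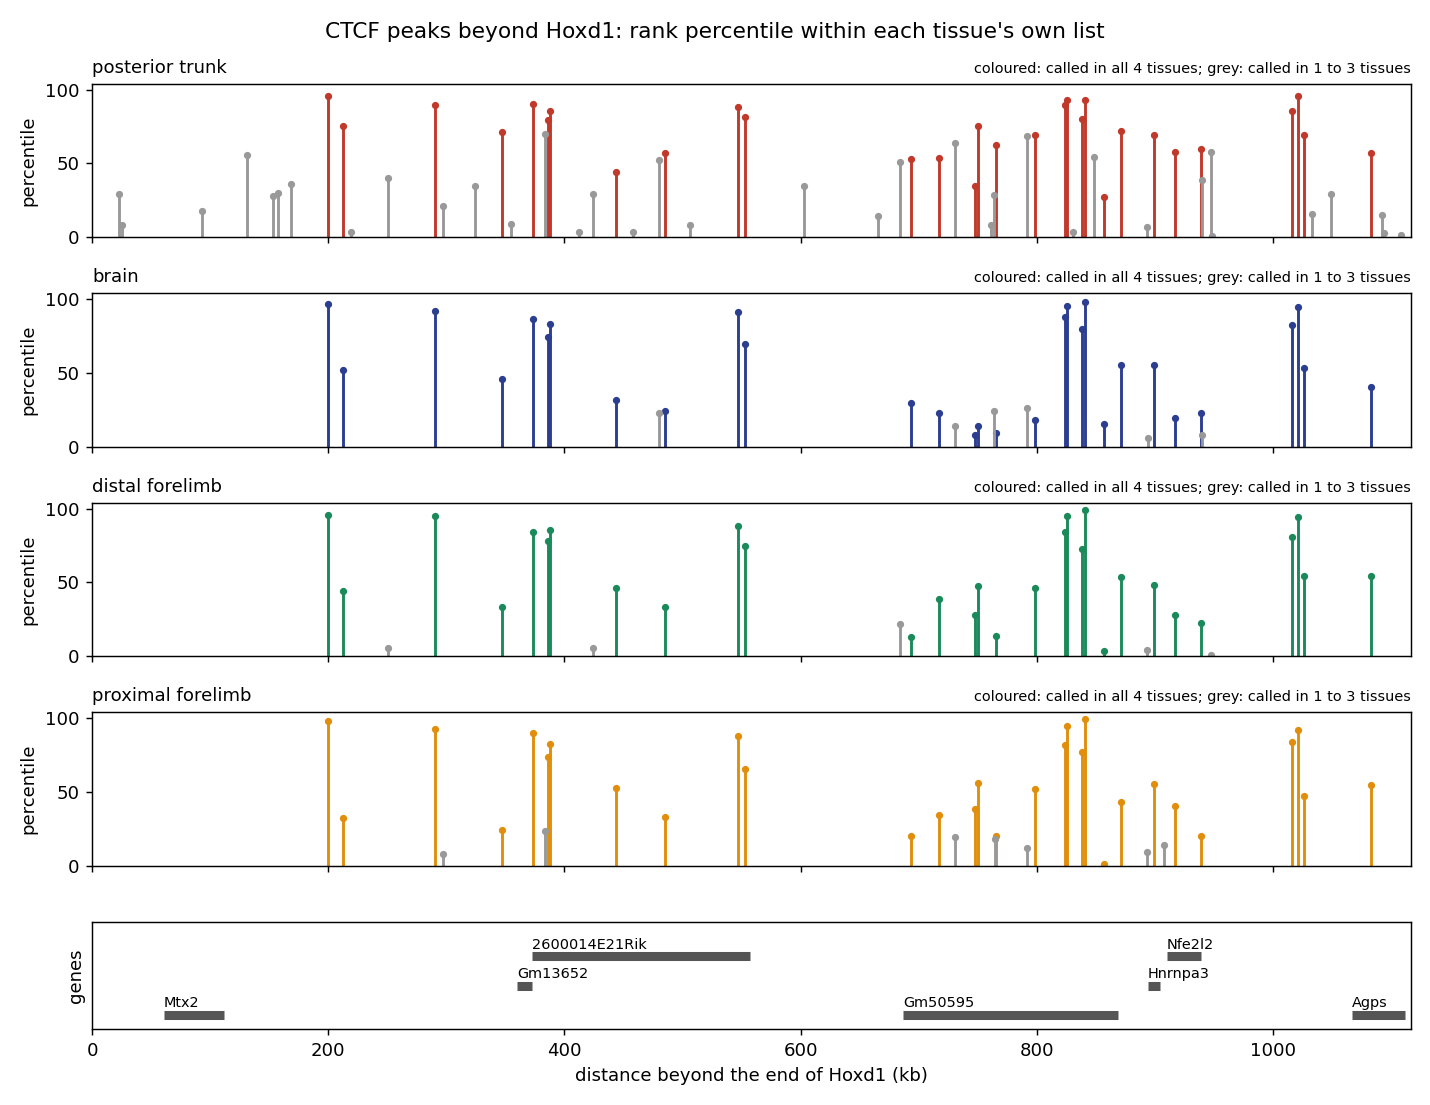
Rank percentile of each CTCF peak within its own tissue's list (vertical axis, strongest peak at 100) against the distance beyond Hoxd1 in kb, with 1 panel and 1 library per tissue. Coloured stems are the 30 regions called in all 4 tissues and grey stems the others, and the lowest panel shows 7 gene spans, Agps being drawn only as far as the interval reaches. The first 199 kb hold grey stems in posterior trunk and none in the other tissues.

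Sites called in every tissue were missing from the neighbourhood of Mtx2. No region called everywhere lay within the first 199 kb beyond Hoxd1, which include the 50.9 kb span of Mtx2. The preceding region called everywhere ended at position 74716410, in Hoxd3, so that 248 kb separated it from the next one. Of all gaps between neighbouring regions of this kind in the genome, 2.99% were at least as long, and their median was 19.8 kb. Inside the interval the median gap was 21.7 kb. The 7 regions in these 199 kb were all called in posterior trunk only. The strongest of them, chr2:74896366-74896904, stood at percentile 55.9 of the trunk list with a fold of 5.90 over local background. Mtx2 itself held a single region, chr2:74858083-74858323, at percentile 17.6 and a fold of 2.83, and that region did not pass after scaling to equal depth. The Mtx2 promoter carried no region in any of the 4 lists. Closest to Hoxd1 were chr2:74787728-74787989, at percentile 29.2, and chr2:74790097-74790345, at 8.68. The remaining regions of this stretch were chr2:74917852-74918209 at 27.8, chr2:74922155-74922407 at 29.7 and chr2:74933014-74933316 at 36.4.

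Strong sites called in every tissue lay in several groups along the rest of the interval. To compare strength between lists of unequal length, each of the 51657 regions called everywhere was ranked in every tissue within this 1 common set. Of the 30 members, 10 had a median percentile by p of at least 75 over the tissues, against 24.8% of the common set. Ranked by fold, chr2:75152358-75152959, chr2:75588535-75589011 and chr2:75781072-75781610 of these 10 stood below 75 in every tissue. The first of the 10 along the interval was chr2:74964151-74964849, 199 kb beyond Hoxd1. Its percentiles by p were 91.7 in posterior trunk, 95.3 in brain, 94.7 in distal and 97.2 in proximal forelimb. Summit pileups there were 341, 315, 231 and 246 reads in that order, and folds 13.9, 15.8, 18.4 and 19.4. Next came chr2:75055087-75055652 at 289.9 kb, with 78.9, 88.7, 93.8 and 90.4 in the same order. The Gm13652 promoter region, chr2:75137845-75138421 at 373 kb, had 80.0, 80.6, 80.0 and 87.7. All these ranks lay in the upper part of the common set in each tissue.

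Close to the Gm13652 promoter was a pair of regions only 985 bases apart, inside the non-coding gene 2600014E21Rik. The first, chr2:75150856-75151372, stood at 57.4, 62.9, 72.2 and 67.5 in posterior trunk, brain, distal and proximal forelimb. Its neighbour chr2:75152358-75152959 stood at 70.1, 76.1, 82.0 and 78.5. Local background was high at this pair, at 44.5 and 43.9 in posterior trunk, where the lowest of the list was 9.34. A fold is divided by that background, so ranks by fold were lower here than ranks by p, at 25.4 and 34.5 in posterior trunk. Further along the same gene, chr2:75312178-75312856 at 547 kb had 75.2, 87.6, 85.3 and 84.6, and chr2:75318051-75318757 at 553 kb had 61.2, 56.3, 68.1 and 57.4.

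The densest group of strong sites, 4 regions called everywhere, lay inside the span of Gm50595, 823 to 840.5 kb beyond Hoxd1. It opened with chr2:75588535-75589011, at 78.9, 82.4, 80.0 and 77.7. After it stood chr2:75590116-75590655, at 85.2, 92.9, 93.5 and 93.6. The third was chr2:75603025-75603577, at 58.9, 71.2, 66.0 and 71.4. The last, chr2:75605610-75606143, had the highest rank by p of the 30 in brain and in both forelimb parts, at 96.8, 99.1 and 98.9. By fold it stood at 75.2, 82.0 and 84.1 there, below several others, among them the region at 199 kb with 94.0, 94.3 and 98.1. In posterior trunk it stood at 85.3 by p, behind the region at 199 kb and chr2:75786027-75786614. Its summit pileups were 385 in posterior trunk, 375 in brain, 328 in distal and 316 in proximal forelimb, while the highest pileups of the whole lists were 399, 393, 368 and 365. The trunk and brain values lay close to the highest pileups of their lists, and the part of this in the lower trunk rank was not tested. Local background in posterior trunk was 35.1 to 38.3 over these 4 regions, and their trunk ranks by fold were 50.7, 55.2, 33.4 and 50.9. A further group stood beyond Nfe2l2, in and beside the non-coding gene Gm13657. There chr2:75781072-75781610 had 70.4, 75.3, 75.5 and 80.1, chr2:75786027-75786614 had 91.1, 92.7, 92.5 and 90.3, and chr2:75791555-75792051 had 36.9, 34.1, 43.5 and 35.3. Local background in posterior trunk was 30.8 at the first of these and 31.6 at the second. Their trunk ranks by fold were 50.6 and 65.3.

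In members called everywhere the summits of the 4 tissues lay close together. The distance between the outermost of the 4 summits had a median of 21.5 bases, and in 28 of 30 regions it was at most 60 bases. The exceptions were chr2:75530331-75531135, with 342 bases, and chr2:75621931-75622316, with 90. The latter stood at 1.73, 1.94, 0.537 and 0.170 in posterior trunk, brain, distal and proximal forelimb, the lowest of the 30 in every tissue but brain, and after scaling to equal depth it passed in posterior trunk only. Regions called everywhere were 539 bases wide at the median, and trunk-only regions 262 bases. Genome-wide values of summit distance and width are not given here, so these describe the members only.

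Ranks within the common set followed each other closely between tissues. As a description over the 30 regions, Spearman's rho was 0.963 between distal and proximal forelimb, 0.922 between brain and distal forelimb and 0.864 between brain and proximal forelimb. Between posterior trunk and brain, distal forelimb and proximal forelimb it was 0.888, 0.897 and 0.859. Over all 51657 regions the same 6 values were 0.959, 0.941, 0.935, 0.917, 0.895 and 0.879. The 4 lists share the same genomic sequence, so such values carry no p. At least 1 pair of tissues stood 20 or more points apart in 9 of the 30 regions, against 27.3% of the common set. Distal and proximal forelimb were that far apart in 0 of 30, against 3.15%.

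**Figure D2:**
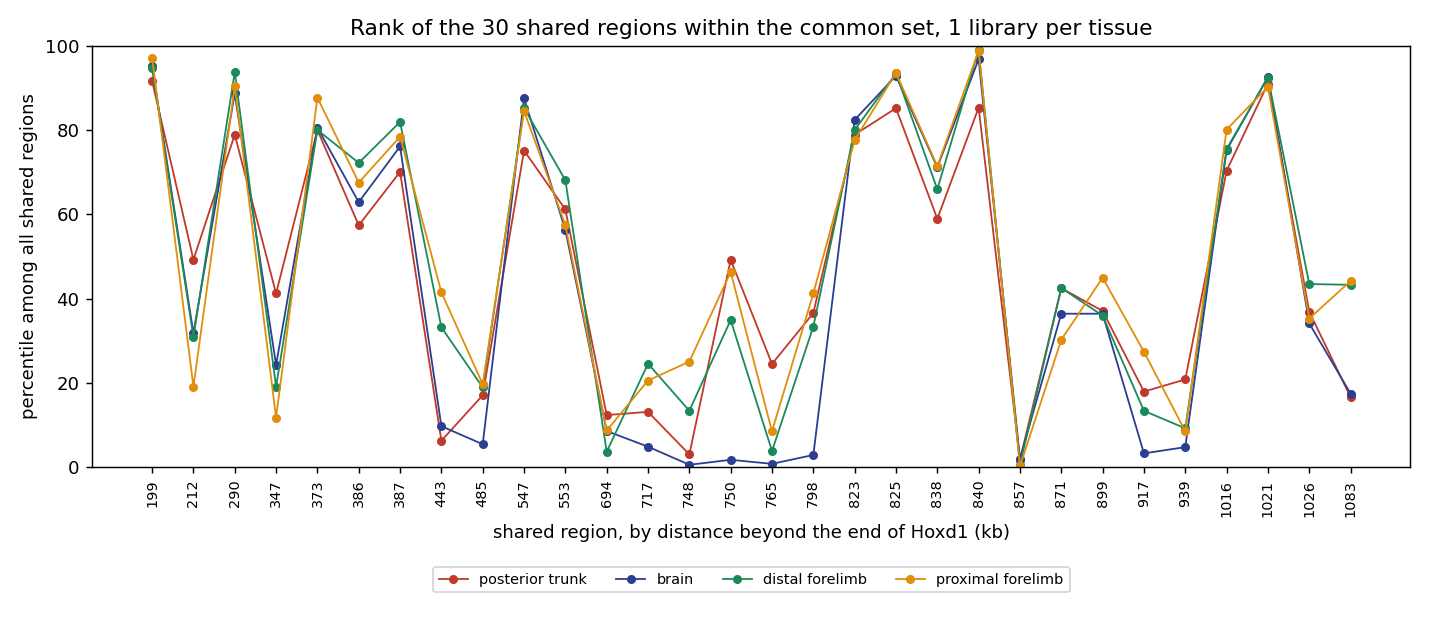
Percentile of each of the 30 shared regions among all 51657 regions called in every tissue (vertical axis), ordered by distance beyond Hoxd1 in kb (horizontal axis, evenly spaced), with 1 library per tissue and lines only to guide the eye. Brain falls to between 0.528 and 8.55 over the 6 regions from 694 to 798 kb and rises to 82.4 at the next region.

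Brain ranked low over one stretch of the interval. The 6 regions called everywhere from chr2:75458736-75459352 to chr2:75563602-75564007, over 105 kb within Gm50595, had brain percentiles of 0.528 to 8.55, with a median of 2.28. Their medians were 18.8 in posterior trunk, 18.9 in distal and 22.8 in proximal forelimb. Brain was the lowest of the 4 tissues in 5 of the 6, and in 10 of all 30, against 19.3% of the common set. This stretch was picked after its values had been seen.

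The widest difference between tissues was at chr2:75515153-75515913, 750.0 kb beyond Hoxd1. It stood at percentile 49.2 in posterior trunk, 1.71 in brain, 34.9 in distal and 46.3 in proximal forelimb. Summit pileups were 195, 34, 52 and 67 reads, lowest in brain. The authors' folds were 9.78, 2.70, 6.01 and 7.25, each within its own list. Exact 95% Poisson intervals of the summit pileup, which cover counting error only, put the fold in brain between 1.89 and 3.74 and in distal forelimb between 4.52 and 7.84. The second widest was chr2:75563602-75564007 at 798 kb, with 36.6, 2.86, 33.3 and 41.2. Pileups there were 138, 31, 39 and 49 reads. Its folds were 9.29, 3.14, 7.43 and 8.04, with intervals of 2.16 to 4.41 in brain and 5.34 to 10.1 in distal forelimb. Intervals were computed only for the 5 regions with the widest spread of ranks, so their separation follows from that choice and supports nothing further. Brain was thus 20 or more points below each other tissue in 2 of 30 regions, against 0.401% of the common set. At 10 points this held for 4 of 30, against 2.68%.

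Brain was also the lowest tissue at weaker regions around this pair. Region chr2:75512669-75512980, also in the non-coding gene Gm39854, stood at 2.99 in posterior trunk, 0.528 in brain, 13.4 in distal and 25.0 in proximal forelimb. The site chr2:75482490-75482862 had 13.1, 4.83, 24.5 and 20.5, and chr2:75530331-75531135 had 24.5, 0.755, 3.81 and 8.46. In the latter the proximal forelimb summit was at 75530586. Those of posterior trunk, brain and distal forelimb were at 75530928, 75530914 and 75530915. The proximal forelimb rank of this region may therefore describe a different site from the others. At the edge of the stretch, chr2:75458736-75459352 had 12.3, 8.55, 3.62 and 8.67, and there brain was not the lowest. After scaling to equal depth with the common threshold, 4 of these 6 regions were no longer called in brain. In the whole interval brain calls then fell from 36 to 27. The stretch was picked for its low brain ranks, so this loss follows in part from that choice. The share of brain calls lost over the common set is not given here. The relative depth of the brain library was 2.02, and its part in these ranks was not tested.

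**Figure D3:**
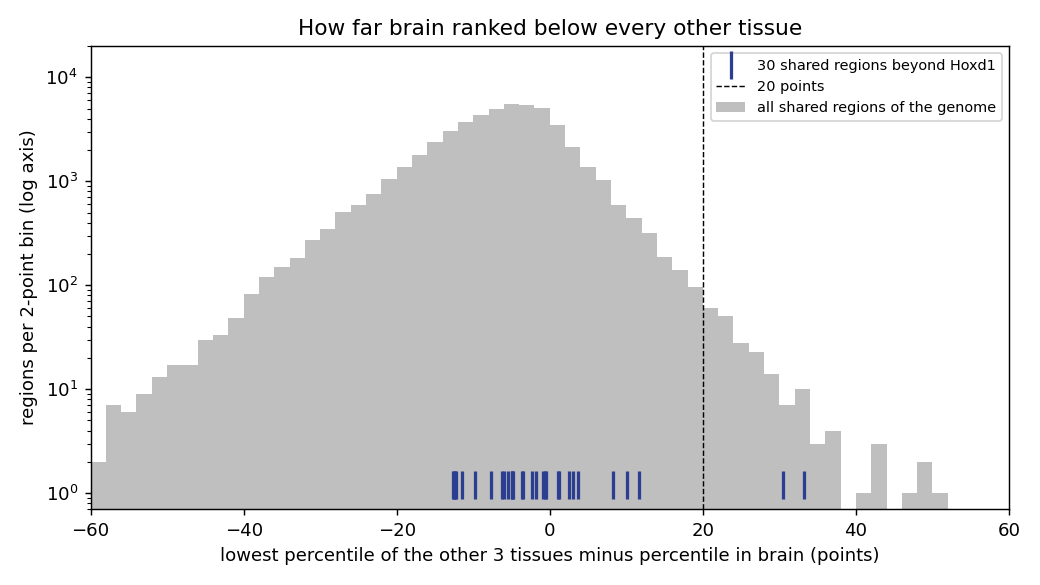
Number of regions called in every tissue per 2-point bin (log axis) by how far the lowest of the other 3 tissues stood above brain in percentile points. The blue marks are the 30 regions beyond Hoxd1, of which 2 lie past the dashed line at 20 points, at 30.5 and 33.2, and bars count the shared regions of the genome that fall in the plotted range.

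Counted by pairs, brain stood 20 or more points below proximal forelimb in 6 of 30 regions, against 3.40% of the common set, below distal forelimb in 4, against 2.87%, and below posterior trunk in 3, against 4.49%. Beyond the stretch, brain was also low at chr2:75250547-75250877 in 2600014E21Rik, with 5.41 against 17.0, 18.9 and 19.7 in posterior trunk, distal and proximal forelimb. In Nfe2l2, which encodes a transcription factor of the oxidative stress response, chr2:75682063-75682616 had 3.24 in brain against 17.9, 13.3 and 27.4. These comparisons share the single brain library, so that they are not independent of each other.

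Both forelimb parts ranked above posterior trunk at a few sites. At chr2:75208219-75208622, 443 kb beyond Hoxd1, percentiles were 6.24 in posterior trunk, 9.69 in brain, 33.2 in distal and 41.5 in proximal forelimb. Pileups were 55, 39, 41 and 49 reads, close together in libraries of unequal depth. The folds in the same order were 4.69, 4.12, 7.02 and 8.17. Intervals were 3.55 to 6.08 in posterior trunk, 5.09 to 9.47 in distal and 6.09 to 10.7 in proximal forelimb. Those of posterior trunk and distal forelimb overlapped. In Agps, which encodes an enzyme of ether lipid synthesis, chr2:75847740-75848278 showed the same order, at 16.6, 17.4, 43.3 and 44.2. Both forelimb parts were 20 or more points above posterior trunk in these 2 of 30 regions, against 4.74% of the common set.

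The reverse order was seen near the start of the landscape. The region chr2:74977397-74977818, which lay 12547 bases after the first strong site, stood at 49.2 in posterior trunk, 31.7 in brain, 30.9 in distal and 19.1 in proximal forelimb. Its folds were 10.2, 6.44, 6.09 and 5.12, with intervals of 8.85 to 11.8 in posterior trunk and 5.08 to 8.07 in brain. At chr2:75111675-75112212, 347 kb beyond Hoxd1, percentiles were 41.2, 24.2, 19.0 and 11.7. Ranked by p, only there was posterior trunk 20 or more points above both forelimb parts, 1 of 30 regions against 3.58% of the common set. Ranked by fold, posterior trunk stood 20 points above distal forelimb in 4, against 11.9%, and above proximal forelimb in 4, against 13.4%. Among both was chr2:75636402-75637008. The other way, by fold, distal forelimb stood above posterior trunk in 6, against 11.6%, and proximal forelimb in 7, against 13.3%.

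Regions called in 2 or 3 tissues were mostly weak outside posterior trunk. The clearest was chr2:75148691-75149060, 1795 bases before the close pair in 2600014E21Rik. Its summit pileup was 238 in posterior trunk, at percentile 69.8 of that list and a fold of 5.12, and 49 in proximal forelimb, at percentile 23.3 and a fold of 2.78. It was absent from the brain and distal forelimb lists. Local background was 45.7 in posterior trunk, the highest at any trunk peak of the interval, and 17.0 in proximal forelimb, and whether such a background hid a peak in the other lists was not tested.

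Posterior trunk and distal forelimb alone shared 4 regions, or 5.71%, against 1.97% of all union regions. These were chr2:75015152-75015692, chr2:75188743-75189254, chr2:75449456-75449850 and chr2:75712968-75713393. Their percentiles in the distal forelimb list were only 5.85, 5.99, 21.6 and 0.711, all in the weak part of that list. Posterior trunk and proximal forelimb alone also shared chr2:75061874-75062260, in the non-coding gene Gm46748, at 21.3 and 7.74. Posterior trunk and brain shared chr2:75245051-75245647, at 52.1 and 23.2, and chr2:75528563-75528815, at 28.5 and 24.1. Within the stretch of low brain ranks, chr2:75495377-75495834 and chr2:75556609-75557102 lacked a peak in distal forelimb. Their list percentiles were 63.9 and 68.4 in posterior trunk, 14.2 and 26.0 in brain, and 19.7 and 12.3 in proximal forelimb.

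The 25 trunk-only regions were weak within the trunk list. Their percentiles ran from 1.04 to 55.9 with a median of 15.4, where the median over all trunk-only regions of the genome was 19.9. Folds ran from 1.97 to 5.90, and 19 of the 25 lay under percentile 30. After the region at 74896366, the highest fold was 5.14 at chr2:75613353-75613681, at percentile 54.2, which overlaps the start of the non-coding gene Gm39853. It was followed by chr2:75367926-75368288 with 3.68, chr2:74933014-74933316 with 3.60, chr2:75089387-75089759 with 3.55, chr2:75814111-75814427 with 3.48 and chr2:74787728-74787989 with 3.41. All 7 still passed in posterior trunk after scaling to equal depth, as did 10 of the 25, with no genome-wide share given here. By contrast, 27 of the 30 regions called everywhere lay above percentile 50 of the trunk list. A stronger site passes more lists, so this contrast is partly built into the call. Genome-wide shares under percentile 30 and above percentile 50 are not given here, so these counts describe the members only.

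Posterior trunk was not the only tissue with regions of its own. Proximal forelimb alone had chr2:75673200-75673430, between Hnrnpa3 and Nfe2l2, with a fold of 3.54 at percentile 13.9 of its list. It also had chr2:75529062-75530097, which lay 233 bases from a region called everywhere and 246 bases from one called in posterior trunk and brain. Brain alone had chr2:75704935-75705134, at percentile 7.99, which lay 72 bases from a trunk-only region. In all, 5 regions called in 1 tissue lay within 300 bases of another region, where the placing of a peak's edge decides whether peaks are joined.

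Hnrnpa3 held its strongest region inside the gene and weak ones at its promoter. Inside the span, chr2:75663880-75664415 was called in every tissue, at 37.1 in posterior trunk, 36.4 in brain, 36.0 in distal and 45.0 in proximal forelimb of the common set. Its folds were 10.7, 7.97, 8.04 and 9.31, and its ranks differed by 9.01 points at most. Over the promoter sequence printed above, brain alone had chr2:75658998-75659197, with a fold of 2.52 at percentile 6.28 of the brain list. A neighbouring region, chr2:75658491-75658846, 151 bases away, was called in the other 3 tissues, at percentiles 7.10, 4.36 and 9.36 of the posterior trunk, distal forelimb and proximal forelimb lists. All of these were near the thresholds of their lists, and after scaling the brain region was lost. Upstream of the gene, chr2:75636402-75637008 stood at 42.5, 36.4, 42.5 and 30.2 by p, and at 74.9, 46.6, 53.9 and 38.4 by fold. At the start of Nfe2l2, chr2:75704312-75704713 had 20.8 in posterior trunk, 4.73 in brain, 9.19 in distal and 8.47 in proximal forelimb. Agps held 3 trunk-only regions beside its region called everywhere, all at percentile 15.4 or lower.

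Counts of each pattern were set beside those of the neighbouring stretches. The Hoxd cluster from Evx2 to Hoxd1 had 20 regions, with 10 called everywhere and 9 in posterior trunk only. A window of the same length on the centromeric side had 69 regions, with 26 called everywhere and 26 in posterior trunk only, where the Mtx2 side had 30 and 25 of 70. Regions in posterior trunk and distal forelimb alone were 4 on the Mtx2 side and 0 in either of the others. After scaling to equal depth with the common threshold, 53 regions were left on the Mtx2 side, 50 on the centromeric side and 13 in the cluster. Of these, 24, 25 and 9 were called everywhere, and 12, 12 and 2 in posterior trunk only. In lists of equal length 3 of 45, 5 of 45 and 2 of 13 were trunk-only, in the same order. With 1 library per tissue, no test of these differences was possible.

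**Figure D4:**
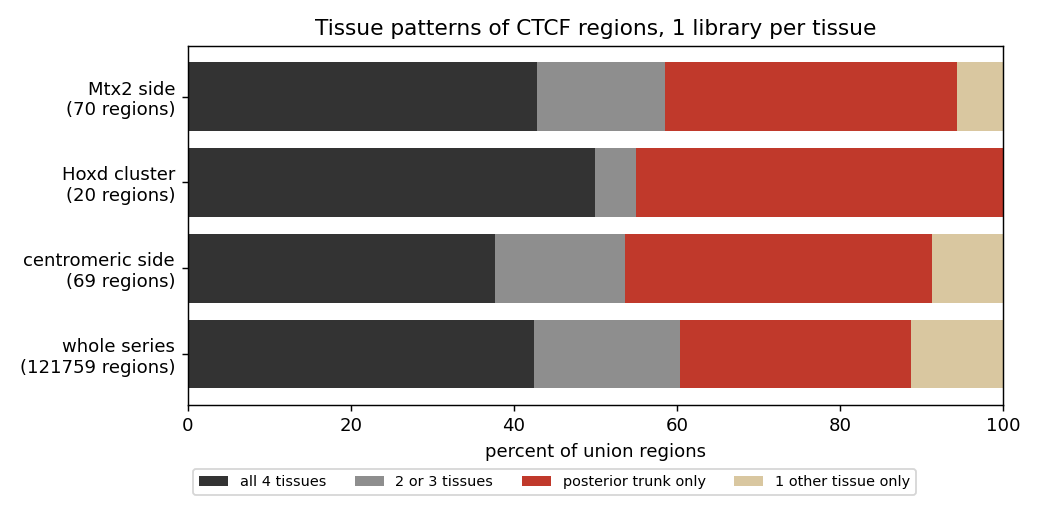
Percent of union regions (horizontal axis) by tissue pattern on the Mtx2 side, in the Hoxd cluster, on the centromeric side and over all 121759 regions, from 1 library per tissue. The dark part, regions called in all 4 tissues, is 42.9%, 50.0%, 37.7% and 42.4%, and the red part, regions called in posterior trunk only, is 35.7%, 45.0%, 37.7% and 28.4%.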

How the data were processed

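The submitters' processing notes name MACS2 2.1.1.20160309, Bowtie2 2.3.5, SAMtools 1.9 and cutadapt 1.16, with mm10 as the build and no role for each. Options, and whether a control library was used, were not stated there. One narrowPeak list per library was deposited. Its fold is a ratio of summit pileup to local background with a pseudocount of 1 on each. The deposited −log10 p-value and q-value are those of the summit, and the deposited score column restates q. Folds are the authors' values.

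From these, peaks with several summits were reduced to the strongest. Rows on chromosomes 1 to 19, X and Y were kept. Pileup and background were recovered from fold and p with errors of at most 0.00031 in −log10 p, and the recovery, joining and motif search were tested on simulated data. Percentiles rank peaks by p. Alternatives were stricter q, equal list length, equal depth, joining by summits within 100 bases, rank by fold and other motif letters. Sequences are RefSeq's, of GRCm38.p6. Tables were handled with pandas 2.3.3 and numpy 2.4.6 in Python 3.11.15, intervals came from scipy 1.17.1, and plots from matplotlib 3.10.9. No test across libraries was run.

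Named regions are all those called in 2 or more tissues, the 8 one-tissue regions with the highest fold, any at Mtx2 or Hnrnpa3, and the 5 with the widest spread of common-set ranks. Regions near Hoxd1, in Agps or close to a neighbour were added after their values were seen. The interval and these rules were chosen with earlier results of these data known.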

Additional observations from a re-analysis of the deposited data

How the results depend on the processing

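Of 74 alternative values, 53 stayed within 1.5 times the main count. Regions called in all 4 tissues did so in every setting run, at 24 to 30. Trunk-only counts moved most. In lists of equal length the Mtx2 side had 45 regions, 37 with a trunk peak and 3 trunk-only. The cluster had 13 and 2, and the centromeric side 45 and 5. Scaling to equal depth with a −log10 p of 5 or more changed depth and threshold together. Trunk-only regions were then 12 of 53 on the Mtx2 side, 2 of 13 in the cluster and 12 of 50 on the centromeric side. With a −log10 q of at least 5 they were 5 of 16 in the cluster and 17 of 54 on the centromeric side. Without the posterior trunk library 45 regions were left, and 30 were called in the 3 other tissues. Ranked by fold, 15 of the 30 shared regions had a pair of tissues 20 points apart, against 41.2% of the common set. Posterior trunk stood above brain in 5, against 10.1%, and brain below each other tissue in 2, against 0.678%. With 10 points and ranks by p these were 20, 8 and 4, against 68.8%, 17.9% and 2.68%. Distal forelimb then stood above brain in 9, against 12.7%. With the letters CCCTC, 3 genes had a match in promoter bases inside a region, against 1 in the main search. These letters occurred in 60.5% of all promoters and in 70.9% of those on a region called everywhere. The matches of Hnrnpa3 and the non-coding gene Gm39859 were the same bases, chr2:75659153-75659157, read on opposite strands. The cause of these shifts was not tested, except that shorter lists, stricter thresholds and fewer libraries leave fewer regions by construction. Motifs at summits were not searched, for want of a genome in use here, and no library could be left out within a tissue. No paired analysis was possible because there was a single library from every tissue. Ranks describe 1 library each.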
